A study of Arabidopsis thaliana with 4 samples.

Results

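Glutathione S-transferases (GSTs) are the subject here: the 49 genes whose name in the deposited tables begins with GSTU (tau class, 28 genes), GSTF (phi class, 13 genes), GSTZ (zeta, 2 genes), GSTT (theta, 3 genes) or GSTL (lambda, 3 genes), out of 24252 genes listed in at least 1 library. Of these, 46 reached the mean of 1 FPKM needed for testing. GSTU15, GSTU21 and GSTZ2 did not.

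The libraries were 2 of wild type (WT) and 2 of fer-4, which the labels give as homozygous for loss of FERONIA (FER), a gene for a receptor kinase. Both genotypes were labelled ecotype Col-0 and were whole Arabidopsis thaliana seedlings, 7 days old and untreated, from upright plates under 16 h of light and 8 h of dark. The labels name 2 replicates per genotype but do not say that they came from separate cultures. The p-values therefore reflect only how far these 4 libraries spread, which may be technical. The labels give no other allele, and the lesion in fer-4 is not described in the sources used here.

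GSTs join the tripeptide glutathione to reactive or foreign molecules, reduce peroxides with it, or bind small molecules without changing them. The tau and phi classes are plant classes that grew by repeated gene duplication, and many members are induced by herbicides, oxidants, pathogens and hormones. The zeta, theta and lambda classes are small and have more specialised activities. In whole seedlings, fewer cells of a type and less transcript per cell cannot be told apart.

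FER itself measured 89.0 and 91.9 FPKM in WT, against 60.6 and 62.1 FPKM in fer-4. FPKM divides the fragments of a gene by transcript length and by the size of the library, so levels of different genes can be compared. The FER transcript fell by 0.55 ± 0.08 on the log2 scale (moderated SE; limma, adjusted p = 0.00638), but not past the threshold without WT replicate 2 (adjusted p = 0.0593). A value per gene does not show which part of the FER transcript the remaining fragments came from. All p-values of single genes below come from this limma fit over 19183 genes, two-sided and adjusted over all of them, with a threshold of 0.05. Fold changes are on the scale of log2(FPKM + 1), which understates the change of low genes. With 1 library left out, the spread of a gene came only from the genotype that kept both libraries. A p-value from such a fit does not weigh the spread of the other genotype.

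The files hold no counts. Depth was estimated from low values inside a fixed window, taken as genes with 1 fragment, and the window bounds what this could give. The estimate was 19.5 to 20.8 M fragments per library. By it, 1 fragment in a transcript of 1000 bp was worth 0.0482 to 0.0513 FPKM. Leaf markers (5 genes, such as the Rubisco small subunit RBCS-1A) summed to 14668 and 16012 FPKM in WT, against 13665 and 10959 in fer-4. Root markers (6 genes, such as CASP1 of the endodermis) summed to 114 to 128 FPKM in all 4 libraries. By gene, all 5 leaf markers had negative log2 fold changes, with LHCB3 called lower (limma, adjusted p = 0.0338). That of LHCA3 was only -0.0039, with overlapping groups. Of the 6 root markers 5 had positive log2 fold changes, with EXPA7 called higher (1.47-fold, limma, adjusted p = 0.0154). Those of MYB36 (0.0022) and COBL9 (0.017) were near 0, with overlapping groups. Of the 6 seed storage and oil body markers, 4 or 5 were at 0 in each library and the sum stayed at or under 1.39 FPKM. A jasmonate response list of 6 genes, such as VSP2 and CLH1, summed to 250 and 283 FPKM in WT and to 595 and 1058.5 FPKM in the first and second fer-4 replicate.

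In fer-4 seedlings 14 of the 46 tested GST genes rose and 4 fell, and 28 did not pass the test. The rises included GSTU8, GSTU4, GSTF6, GSTF7, GSTU13 and GSTZ1. The falls were GSTU24, GSTU20 and GSTU27 of the tau class and GSTF14 of the phi class. The share of tested genes called was 39.1% for the GSTs and 23.3% over all 19183 genes tested, where 14.3% were higher and 9.0% lower. The median log2 fold change was 0.26 for the tested GSTs and 0.01 over all genes tested. With quantile normalization the calls over all genes were 2305 higher and 2333 lower, against 2743 and 1726 otherwise.

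Without a filter on low values GSTU10, GSTF7, GSTF10 and GSTF11 were not called. With a filter at a mean of 5 FPKM GSTU12 was not tested, and with quantile normalization GSTU12 and GSTF11 were not called. These settings also added calls. GSTU17 (lower) and GSTF2 (higher) were called with the filter at 5 FPKM, and GSTU17 also with quantile normalization.

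**Figure D1:**
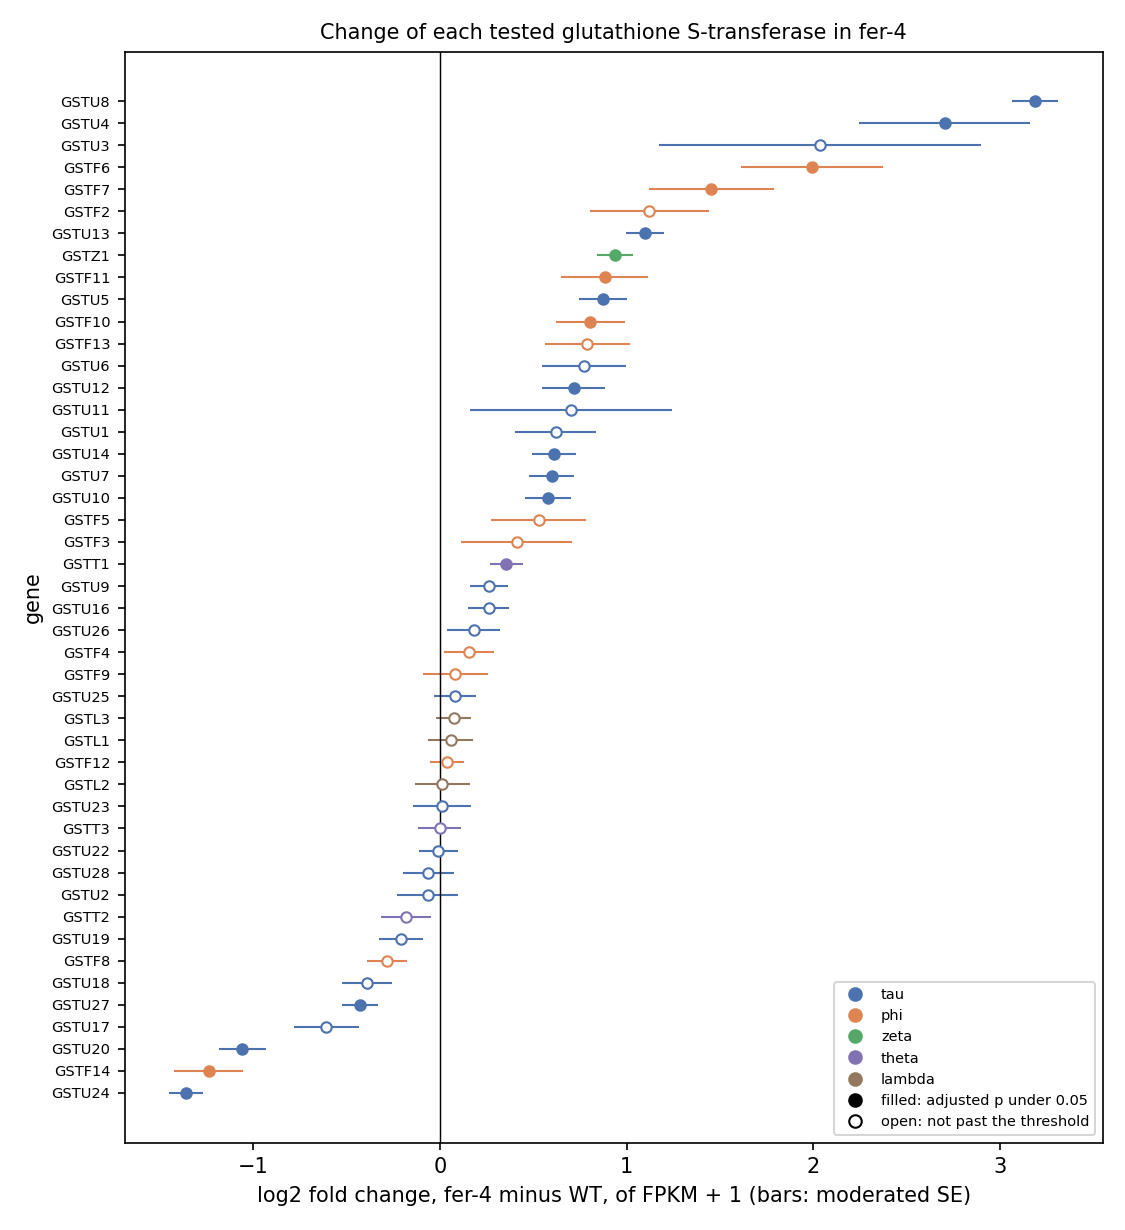
Log2 fold change of FPKM + 1 (fer-4 minus WT, horizontal axis) of the 46 tested GST genes, ordered by size, with moderated standard errors as bars and class as colour; filled points passed the adjusted threshold of 0.05. Filled points run from GSTU24 at -1.36 to GSTU8 at 3.19, and 14 of the 18 lie to the right of 0.

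Summed over its 28 genes, the tau class measured 1861 and 1697 FPKM in WT, against 1650 and 1885 FPKM in fer-4, so the genotypes overlapped and the ratio of their means was 0.994. The 13 phi genes summed to 2381 and 2000.5 FPKM in WT and to 2579 and 3598 FPKM in fer-4, a ratio of 1.41, with both fer-4 libraries above both WT libraries. The tau total was 0.782 and 0.848 times the phi total in WT and 0.64 and 0.524 times in fer-4. No test was made on these sums, and 2 libraries against 2 cannot pass the threshold by permutation. The phi ratio was 1.64 without fer-4 replicate 1 and 1.18 without fer-4 replicate 2, the library with the higher jasmonate response sum; the part of that difference in the ratio was not tested.

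In the tau class 8 of 26 tested genes rose (30.8%) and 3 fell (11.5%), with a median log2 fold change of 0.26. In the phi class 4 of 13 rose (30.8%) and 1 fell (7.69%), with a median of 0.53. The phi median was 0.27 without fer-4 replicate 2. Fer-4 lay above WT in both libraries in 13 tau and 7 phi genes and below it in 6 tau and 2 phi genes; over all genes tested the groups were apart in 66.1%, above WT in 34.4% and below it in 31.7%. The difference between the classes was not tested.

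The tau sum held falls of some members and rises of others. GSTU19 and GSTU20, the tau genes of highest mean level, made up 55.3% and 55.8% of the tau total in WT and 41.0% and 38.6% in fer-4. In the phi class GSTF9, GSTF10 and GSTF8 made up 82.7% and 82.6% of the total in WT and 76.1% and 65.6% in fer-4. All 49 genes together held 0.664% and 0.586% of the summed FPKM of the WT libraries and 0.672% and 0.866% of that of the fer-4 libraries.

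**Figure D2:**
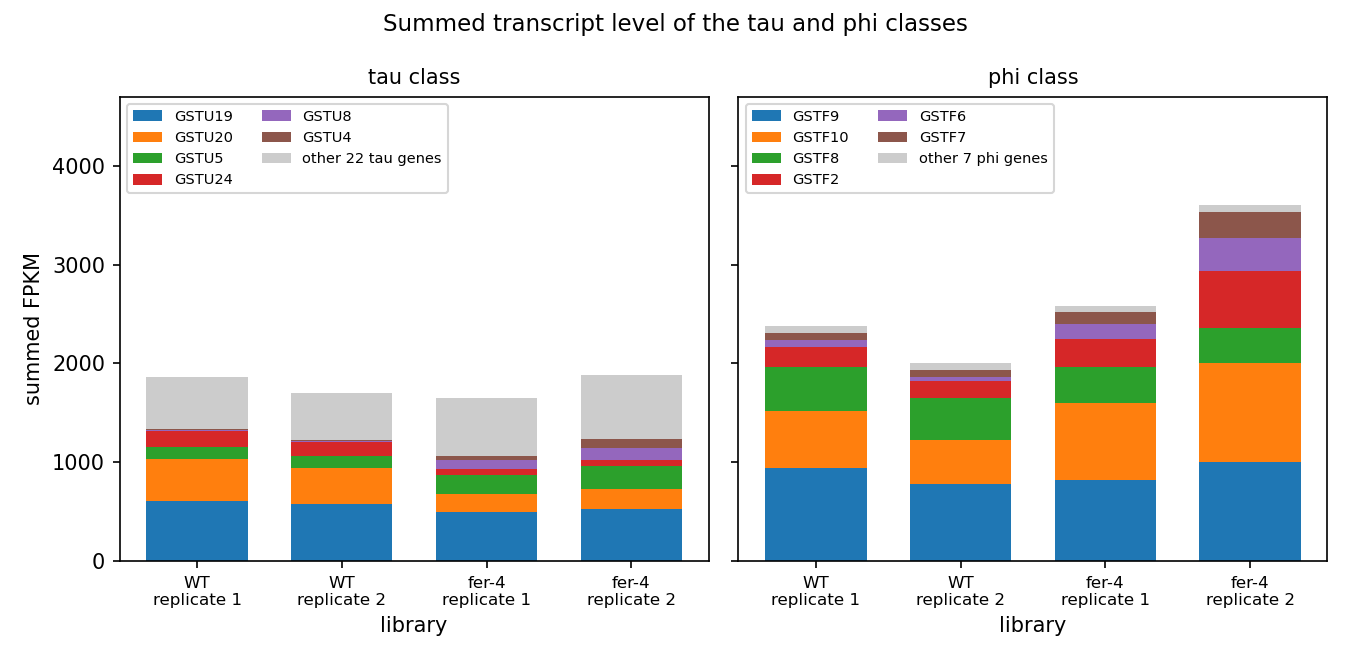
Summed FPKM of the 28 tau genes (left) and the 13 phi genes (right) in each of the 4 libraries, stacked by gene with 6 genes of each class in colour and the others in grey. The tau bars lie between 1650 and 1885 in both genotypes, while the phi bars reach 2381 and 2000.5 in WT and 2579 and 3598 in fer-4.

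GSTU8 had the largest rise of all tested GSTs. It measured 10.2 and 11.7 FPKM in WT, against 97.9 and 119 FPKM in fer-4, a 9.90-fold higher mean (log2 fold change 3.19 ± 0.12, adjusted p = 0.000133). The fer-4 libraries lay far above both WT libraries and close to each other. It moved from rank 27 of the 49 genes by WT mean to rank 13 by fer-4 mean.

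GSTU4 measured 10.8 and 6.11 FPKM in WT, against 36.0 and 95.1 FPKM in fer-4 (7.76-fold, log2 fold change 2.70 ± 0.46, adjusted p = 0.0102). Both fer-4 values were above WT, but they differed from each other 2.64-fold. Without WT replicate 2 the call ended (adjusted p = 0.0876). Its neighbour GSTU3 measured 0.225 and 0.0553 FPKM in WT, worth few fragments by the estimated depth, and 0.690 and 11.9 FPKM in fer-4. GSTU3 did not pass (log2 fold change 2.04 ± 0.86, adjusted p = 0.145). Nearly all of its fer-4 level was in replicate 2, and without fer-4 replicate 1 its log2 fold change was 3.50.

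GSTU13, required in Arabidopsis for a branch of indole glucosinolate metabolism used against pathogens, measured 38.7 and 41.4 FPKM in WT, against 81.0 and 93.5 FPKM in fer-4. Its 2.18-fold rise (log2 fold change 1.10 ± 0.10, adjusted p = 0.0013) was seen in both fer-4 libraries alike. The adjacent GSTU14 rose from 10.8 and 10.3 FPKM to 18.3 and 15.1 FPKM (1.58-fold, adjusted p = 0.0154). GSTU14 was not past the threshold without WT replicate 1 or 2 (adjusted p = 0.080 and adjusted p = 0.11).

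GSTU5, at 122 and 112 FPKM in WT, measured 192 and 239 FPKM in fer-4 (1.85-fold, log2 fold change 0.87 ± 0.13, adjusted p = 0.00649). GSTU7 measured 78.2 and 69.4 FPKM in WT, against 102 and 123 FPKM in fer-4 (1.52-fold, adjusted p = 0.0185). Both genes had every fer-4 value above every WT value. GSTU10 rose 1.54-fold, from 8.39 and 10.4 FPKM to 13.9 and 15.0 FPKM (adjusted p = 0.0227). GSTU12 rose 2.1-fold at a low level, from 1.44 and 1.47 FPKM to 2.58 and 3.53 FPKM (adjusted p = 0.0302). Several of these calls ended when 1 library was left out: without WT replicate 2, GSTU5 had an adjusted p of 0.0649, GSTU7 of 0.125 and GSTU12 of 0.13. Without WT replicate 1, GSTU7 had an adjusted p of 0.0659, GSTU10 of 0.113 and GSTU12 of 0.125, and without fer-4 replicate 2, GSTU10 had 0.0664 and GSTU12 0.0989.

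GSTU24 had the largest fall. GSTU24, which with GSTU25 detoxifies the explosive trinitrotoluene in Arabidopsis, measured 162 and 148 FPKM in WT, against 61.4 and 58.0 FPKM in fer-4. Its WT mean was 2.59 times its fer-4 mean (log2 fold change -1.36 ± 0.09, adjusted p = 0.000515). GSTU25, its neighbour, overlapped between the groups, at 109 and 96.6 FPKM in WT, against 116 and 101 FPKM in fer-4 (log2 fold change 0.08 ± 0.11, adjusted p = 0.646).

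GSTU20, a binding partner of the jasmonate-conjugating enzyme FIN219 (JAR1), measured 425 and 367 FPKM in WT, against 177 and 201 FPKM in fer-4. The WT mean was 2.09 times the fer-4 mean (log2 fold change -1.06 ± 0.12, adjusted p = 0.00281), and this one gene lost more FPKM than any other GST. GSTU19, the tau gene of highest level, lay beside it on the chromosome and measured 605 and 581 FPKM in WT, against 499 and 527 FPKM in fer-4. That difference did not pass (log2 fold change -0.21 ± 0.12, adjusted p = 0.241), although both fer-4 values were below both WT values.

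GSTU27 fell from 68.5 and 59.8 FPKM to 46.6 and 48.0 FPKM (log2 fold change -0.43 ± 0.10, adjusted p = 0.0263). Its call ended without any one of the 4 libraries (adjusted p = 0.0563 to 0.133). GSTU17, known as ERD9 and involved in light signalling and drought responses, measured 17.9 and 15.2 FPKM in WT, against 8.73 and 12.6 FPKM in fer-4 and missed the threshold (adjusted p = 0.0544). Without fer-4 replicate 2 its log2 fold change was -0.85, against -0.61 with all libraries.

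The other tau genes did not pass. GSTU1 measured 32.4 and 24.8 FPKM in the WT libraries and 35.8 and 54.3 in those of fer-4 (adjusted p = 0.0909). GSTU6 measured 15.8 and 10.6 FPKM, then 19.2 and 27.2 (adjusted p = 0.056). In both genes the fer-4 libraries lay above those of WT and replicate 2 was the higher one. GSTU11 measured 1.94 and 1.23 FPKM in WT, against 1.26 and 6.68 FPKM in fer-4, high in fer-4 replicate 2 alone. The remaining tested members, GSTU2, GSTU9, GSTU16, GSTU18, GSTU22, GSTU23, GSTU26 and GSTU28, had log2 fold changes from -0.39 (GSTU18) to 0.26 (GSTU9). GSTU18 measured 32.8 and 38.6 FPKM in the WT libraries and 29.9 and 24.1 in those of fer-4, and GSTU26 56.5 and 42.5 FPKM against 55.9 and 55.4. Without fer-4 replicate 1, the log2 fold change was 0.91 for GSTU1, 1.01 for GSTU6, 1.58 for GSTU11 and -0.54 for GSTU18. Of the untested genes, GSTU15 measured 0.504 and 0.124 FPKM in WT, against 0.120 and 0 FPKM in fer-4. GSTU21 reached at most 0.299 FPKM. By the estimated depth both rested on low numbers of fragments.

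**Figure D3:**
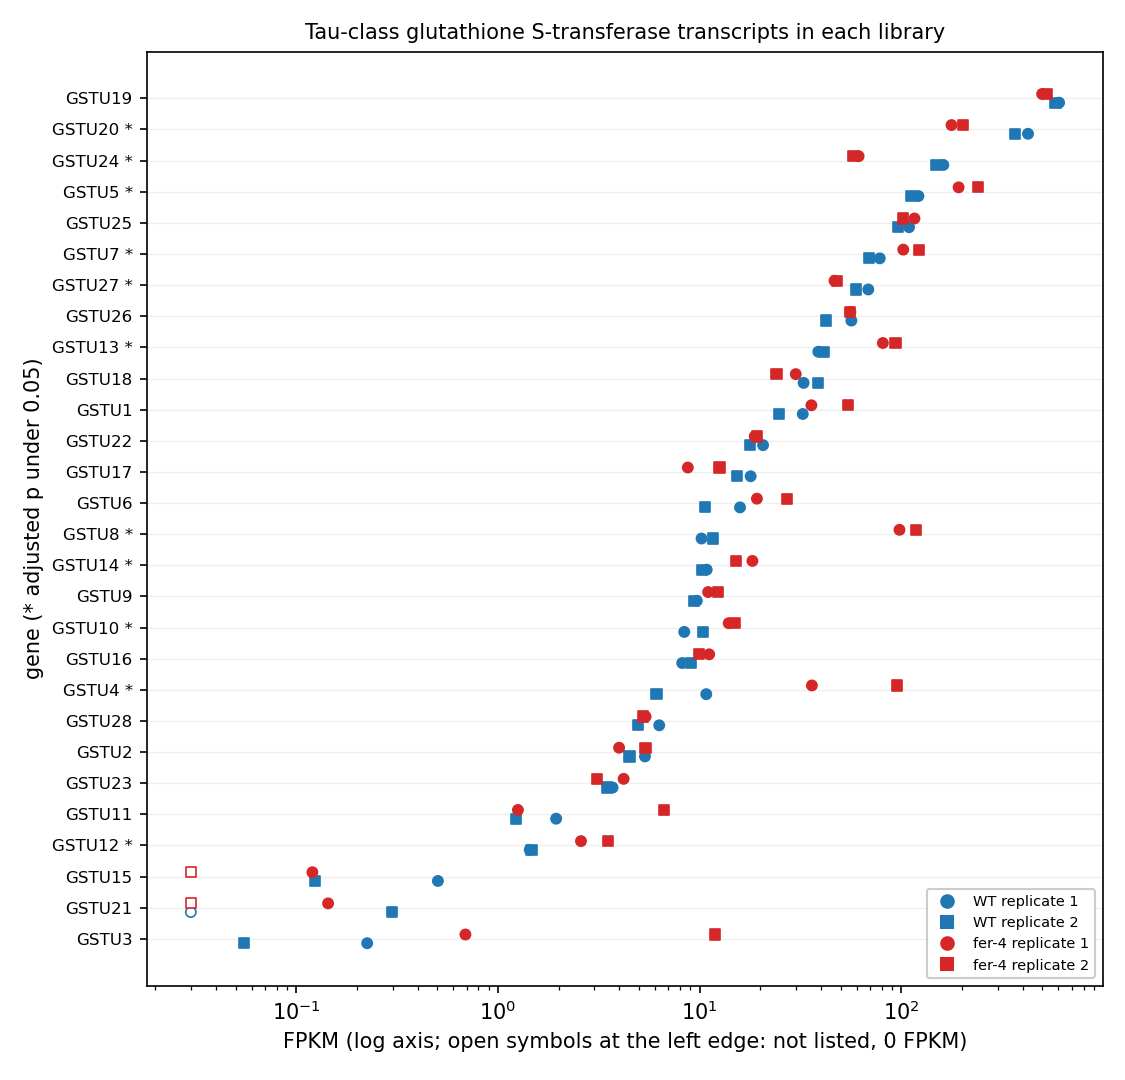
FPKM (log axis) of the 28 tau genes in each library, ordered by WT mean; blue symbols are WT, red symbols fer-4, circles replicate 1, squares replicate 2, and asterisks mark genes past the adjusted threshold of 0.05. GSTU8 and GSTU4 stand apart to the right in fer-4 and GSTU24 and GSTU20 to the left, while GSTU3 and GSTU11 are high in fer-4 replicate 2. Open symbols at the left edge are genes missing from a library's file and set to 0.

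In the phi class, GSTF6 and GSTF7 had the largest rises. GSTF6, which joins glutathione to an indole nitrile on the way to the antimicrobial camalexin, measured 67.7 and 45.0 FPKM in WT, against 149 and 333 FPKM in fer-4 (4.28-fold, log2 fold change 1.99 ± 0.38, adjusted p = 0.0155). GSTF7 measured 68.4 and 61.9 FPKM in WT, against 122 and 266 FPKM in fer-4 (2.98-fold, log2 fold change 1.45 ± 0.34, adjusted p = 0.028). Every fer-4 value was above every WT value in both, and fer-4 replicate 2 was 2.24 and 2.18 times replicate 1. Without WT replicate 1 or 2 the adjusted p was 0.0601 and 0.117 for GSTF6, and 0.123 and 0.158 for GSTF7. Their coding sequences were 94.3% identical, with an identical stretch of 116 bp, so how reads divide between them is uncertain.

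GSTF2, which binds camalexin and flavonols, measured 201 and 171 FPKM in WT, against 283 and 578 FPKM in fer-4. Its 2.31-fold higher mean did not pass (log2 fold change 1.12 ± 0.32, adjusted p = 0.0527), with the fer-4 libraries 2.04-fold apart. Its log2 fold change was 1.64 without fer-4 replicate 1 and 0.61 without fer-4 replicate 2. Its coding sequence was 94.5% identical to that of GSTF3, which stayed at or below 2.50 FPKM in all libraries.

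GSTF10, whose product binds the receptor kinase BAK1, measured 568 and 445 FPKM in WT, against 777 and 996 FPKM in fer-4 (1.75-fold, log2 fold change 0.81 ± 0.19, adjusted p = 0.0279). GSTF9, next to it on the chromosome and the GST of highest mean level in both genotypes, measured 947 and 778 FPKM in WT, against 818 and 1007 FPKM in fer-4 (adjusted p = 0.775), with overlapping groups. GSTF9 lay well above GSTF10 in both WT libraries and close to it in both fer-4 libraries. The GSTF10 call ended without WT replicate 1 (adjusted p = 0.0623), WT replicate 2 (0.153) or fer-4 replicate 2 (0.11).

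GSTF11, assigned to aliphatic glucosinolate synthesis, measured 10.7 and 6.65 FPKM in WT, against 14.0 and 19.3 FPKM in fer-4 (1.92-fold, adjusted p = 0.0436). It was not past the threshold without WT replicate 2 (adjusted p = 0.184) or fer-4 replicate 2 (adjusted p = 0.11). GSTF14 was the phi gene that fell, from 39.3 and 42.6 FPKM to 20.6 and 13.6 FPKM. Its WT mean was 2.39 times its fer-4 mean (log2 fold change -1.24 ± 0.19, adjusted p = 0.00677), with adjusted p of 0.0525 and 0.0692 without WT replicate 1 and 2.

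GSTF8, a widely used marker of early stress responses, measured 454 and 429 FPKM in WT, against 368 and 356 FPKM in fer-4, and missed the threshold (log2 fold change -0.29 ± 0.11, adjusted p = 0.108). GSTF12 (TRANSPARENT TESTA 19), needed to bring anthocyanins into the vacuole, measured nearly the same in all libraries, 13.5 and 13.5 FPKM in WT, against 13.5 and 14.3 FPKM in fer-4 (log2 fold change 0.04 ± 0.09). GSTF13, GSTF5, GSTF3 and GSTF4 had means under 7 FPKM and log2 fold changes from 0.15 (GSTF4) to 0.79 (GSTF13), none past the threshold. GSTF13 was the nearest to it, at 2.98 and 1.57 FPKM in the WT libraries and 4.91 and 4.19 in those of fer-4 (adjusted p = 0.0541). Its log2 fold change was 1.10 without WT replicate 1, and that of GSTF5 was 0.85 without fer-4 replicate 1.

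Of the 8 zeta, theta and lambda genes, 2 of the 7 tested rose, and the other 5 also had an unadjusted p above 0.05. GSTZ1, the maleylacetoacetate isomerase of tyrosine breakdown, measured 51.0 and 48.7 FPKM in WT, against 90.3 and 103 FPKM in fer-4 (1.94-fold, log2 fold change 0.94 ± 0.10, adjusted p = 0.00187). The zeta neighbour GSTZ2 was missing from both WT files, and so set to 0, and measured 0.0667 and 0.285 FPKM in fer-4. GSTT1, a peroxisomal enzyme with peroxidase activity, rose from 59.8 and 57.0 FPKM to 71.9 and 78.3 FPKM (1.29-fold, log2 fold change 0.36 ± 0.09, adjusted p = 0.0355). Its call ended without WT replicate 1, WT replicate 2 or fer-4 replicate 2 (adjusted p = 0.118, 0.177 and 0.139).

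GSTT2 measured 6.11 and 6.83 FPKM in WT, against 4.99 and 6.20 FPKM in fer-4, and GSTT3 7.67 and 7.10 FPKM against 6.88 and 7.89 FPKM. The groups overlapped in both, and their coding sequences were 91.0% identical, with a shared stretch of 134 bp. The lambda enzymes carry a cysteine in place of the serine of tau and phi enzymes and reduce oxidised flavonols. GSTL3, the highest of them, measured 144 and 157 FPKM in WT, against 156 and 160 FPKM in fer-4, GSTL2 49.8 and 56.1 against 61.3 and 46.3, and GSTL1 10.01 and 10.99 against 10.03 and 11.9. All 3 groups overlapped, with log2 fold changes of 0.01 to 0.07 and standard errors of 0.09 to 0.15.

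**Figure D4:**
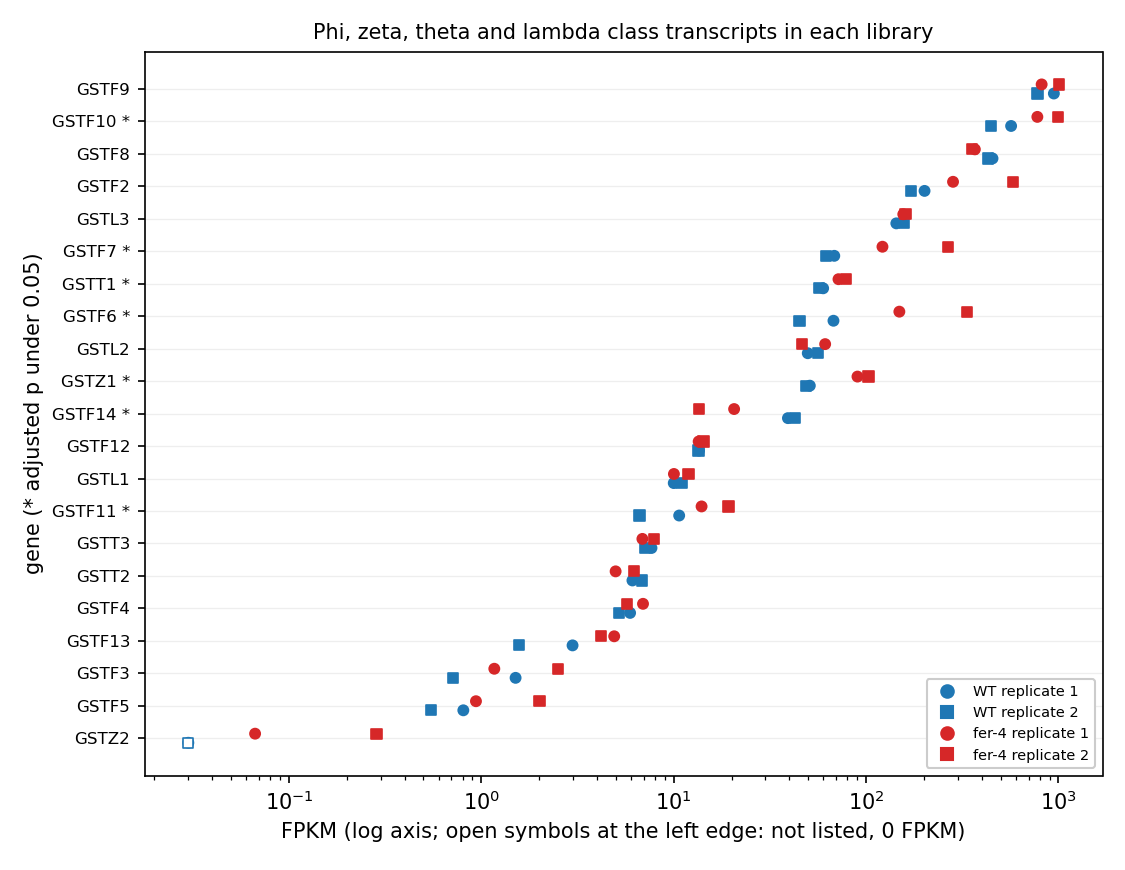
FPKM (log axis) of the 13 phi, 2 zeta, 3 theta and 3 lambda genes in each library, ordered by WT mean, with blue for WT, red for fer-4, circles for replicate 1, squares for replicate 2, and asterisks for genes past the adjusted threshold of 0.05. GSTF6, GSTF7 and GSTF2 are highest in fer-4 replicate 2, GSTF14 lies lower in both fer-4 libraries, and the lambda genes overlap. The open symbol marks GSTZ2, missing from both WT files and set to 0, so that its WT symbols coincide.

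Replicates differed from each other within both genotypes. In fer-4, replicate 2 was above replicate 1 in 18 of 26 tested tau genes and 9 of 13 phi genes, against 10138 of all 19183 genes tested. The median differences were 0.17 and 0.36 on the log2 scale, against 0.013 over all genes tested. In WT, replicate 1 was above replicate 2 in 20 of 26 tau genes and 12 of 13 phi genes, against 11061 of all 19183 genes tested. The median differences (replicate 2 minus replicate 1) were -0.17 and -0.24, against -0.033 over all genes tested. In the jasmonate response list fer-4 replicate 2 was above replicate 1 in 6 of 6 genes, with a median of 0.77. In WT that list went against the GSTs, with replicate 1 above replicate 2 in 2 of 6 genes and a median of 0.27. GSTU8 and GSTU13 differed little between the fer-4 replicates, 1.21-fold and 1.15-fold. Whether the state marked by the jasmonate list had a part in the GST values was not tested.

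The genes lay in groups on the chromosomes. By the RefSeq annotation of TAIR10.1, 34 of the 49 formed 11 runs of neighbours with at most 2 other protein-coding genes between them. The 28 tau genes all had 2 coding exons, and 10 of the 13 phi genes had 3. The longest run, 7 tau genes on the minus strand of chromosome 2 (12617936 to 12632538), held GSTU7, GSTU6, GSTU5, GSTU4, GSTU3, GSTU2 and GSTU1. In it GSTU7, GSTU5 and GSTU4 rose and 4 did not pass, among them GSTU2 with a log2 fold change of -0.06 ± 0.16.

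Neighbours in the other runs often differed. In the run of 5 tau genes on chromosome 1 (29467412 to 29488007), GSTU20 fell while GSTU19, GSTU22 and GSTU23 did not pass and GSTU21 was not tested. In the run of GSTU24, GSTU25 and GSTU26 on chromosome 1 (5869543 to 5876620), GSTU24 alone was called. GSTU13 and GSTU14 (chromosome 1, 9425280 to 9428914) both rose, as did GSTF7 and GSTF6 in the run they share with GSTF5 and GSTF4 (chromosome 1, 658578 to 666471). GSTU8 (chromosome 3, 2848183 to 2849686) and GSTF14 (chromosome 1, 18458526 to 18459969) lay in no run.

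**Figure D5:**
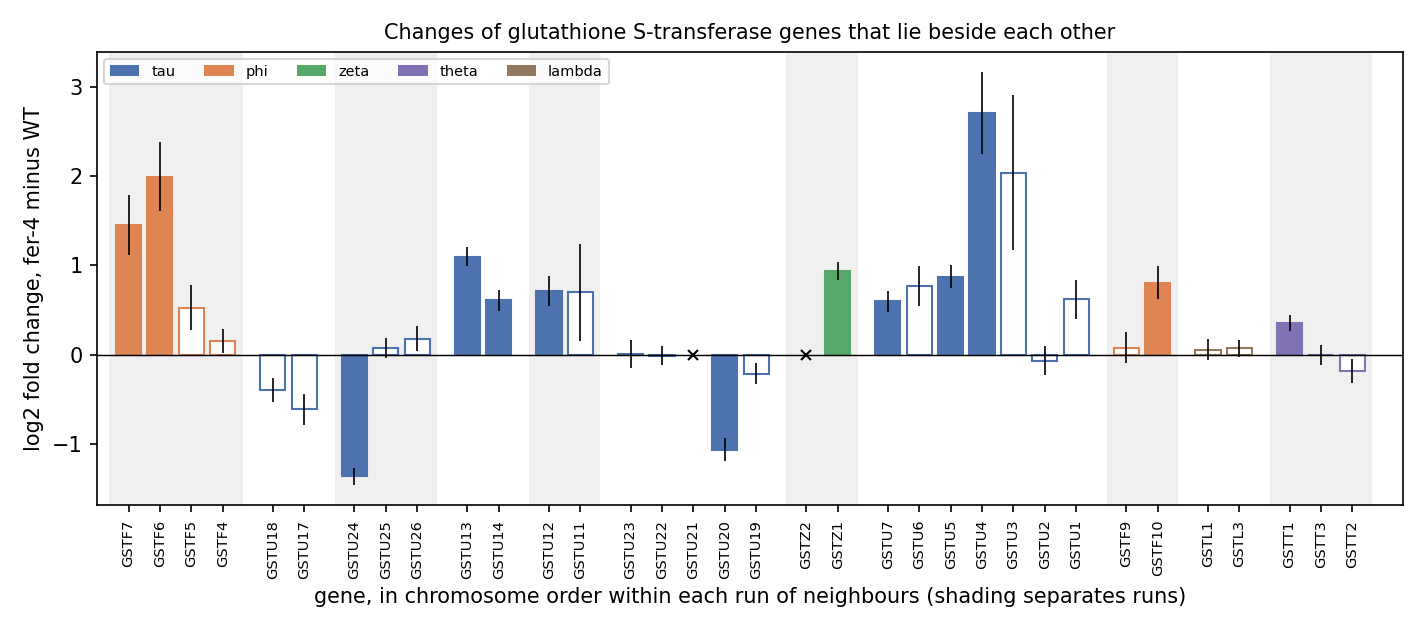
Log2 fold change (fer-4 minus WT) with moderated standard errors of the 34 GST genes that lie in runs of neighbours, in chromosome order, with shading between runs and class as colour; filled bars passed the adjusted threshold and crosses mark untested genes. The run from GSTU7 to GSTU1 holds 3 filled bars above 0, while GSTU24 and GSTU20 are the filled bars below 0 in their runs.

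Sequence upstream of 5 genes is shown, chosen for their changes or for their motifs: GSTU8 with the largest rise, GSTU24 and GSTU20 with the largest tau falls, GSTU7 with the most TGACG matches of any member, and GSTF7 as a phi gene that rose. GSTF7 also had the most TTGAC matches of any member, 3, while GSTF6, the phi gene with the larger rise, had 1. Each is the 250 bases before the annotated start of the gene in RefSeq's TAIR10.1, 5′ to 3′ on the gene's strand. Capitals mark TGACG, the core bound by TGA factors, and TTGAC, the core bound by WRKY factors, on either strand, and these motifs may overlap.
GSTU8 (chr3:2849687-2849936, minus strand): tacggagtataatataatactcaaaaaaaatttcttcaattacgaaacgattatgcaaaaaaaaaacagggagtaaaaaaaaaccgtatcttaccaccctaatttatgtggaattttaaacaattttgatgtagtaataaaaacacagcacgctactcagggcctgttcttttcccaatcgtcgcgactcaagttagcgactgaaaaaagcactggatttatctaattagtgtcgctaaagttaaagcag
GSTU24 (chr1:5869293-5869542, plus strand): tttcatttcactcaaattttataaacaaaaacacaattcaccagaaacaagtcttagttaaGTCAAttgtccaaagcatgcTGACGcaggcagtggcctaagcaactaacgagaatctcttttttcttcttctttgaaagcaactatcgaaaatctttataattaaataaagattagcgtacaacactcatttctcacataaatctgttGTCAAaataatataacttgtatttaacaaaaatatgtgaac
GSTU20 (chr1:29485390-29485639, minus strand): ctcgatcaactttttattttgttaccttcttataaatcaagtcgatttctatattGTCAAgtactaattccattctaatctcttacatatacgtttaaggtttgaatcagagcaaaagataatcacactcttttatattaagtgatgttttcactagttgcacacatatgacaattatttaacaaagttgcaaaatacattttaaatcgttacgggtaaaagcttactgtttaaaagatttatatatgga
GSTU7 (chr2:12618900-12619149, minus strand): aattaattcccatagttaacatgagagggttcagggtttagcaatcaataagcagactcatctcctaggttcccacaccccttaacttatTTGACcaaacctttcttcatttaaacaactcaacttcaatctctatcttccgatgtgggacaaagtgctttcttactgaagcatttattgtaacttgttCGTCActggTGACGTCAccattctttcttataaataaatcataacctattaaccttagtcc
GSTF7 (chr1:659981-660230, minus strand): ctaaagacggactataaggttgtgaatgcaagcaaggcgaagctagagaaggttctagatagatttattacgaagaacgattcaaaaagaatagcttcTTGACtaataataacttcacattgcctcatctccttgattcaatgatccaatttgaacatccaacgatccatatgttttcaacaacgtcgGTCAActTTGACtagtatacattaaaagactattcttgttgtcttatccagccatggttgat

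TGACG on either strand was present upstream of 15 of the 49 genes (30.6%), 11 of them tau and 3 phi, against 18.6% of all 27443 protein-coding genes. It was present in 4 of the 14 genes that rose, 2 of the 4 that fell and 9 of the 28 that did not pass. TTGAC was present in 28 (57.1%), against 44.9% of all genes. It was present in 9 of the 14 genes that rose, 3 of the 4 that fell and 15 of the 28 that did not pass. CACGTG, the G-box, was in 4 genes (8.16% against 6.49%), of which 1 rose and 3 did not pass. GCCGCC, the core of the ethylene-responsive GCC box, was in 3 genes (6.12% against 1.87%). Those were GSTU10, GSTU12 and GSTU13, all of which rose, as did 14 of the 46 tested GST genes. GSTU10 was not called without a filter on low values, and GSTU12 was not called with quantile normalization. A link between motif and change was not tested. These are matches of letters in a short window, not measured binding.

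The wider glutathione system was described with 6 lists holding 58 genes, of which 55 were tested. Of these 18 rose (32.7%, against 14.3% of all genes tested) and 0 fell by limma. An unadjusted limma p under 0.05 was reached by 25 of the 55, and by 7210 of all 19183 genes tested. Quantile normalization called 3 list genes lower. In glutathione synthesis and turnover 5 of 9 rose. GSH2, which makes glutathione in the final step, measured 71.4 and 58.6 FPKM in WT, against 135 and 175 FPKM in fer-4 (2.39-fold, adjusted p = 0.00367). OXP1, the oxoprolinase that recycles its glutamate, rose 2.43-fold, from 8.36 ± 0.872 to 20.3 ± 1.62 FPKM (SD, n = 2; limma, adjusted p = 0.0014). GSH1, the rate-limiting enzyme of the first step, measured 161 and 157 FPKM in WT, against 180 and 241 FPKM in fer-4, and missed the threshold (adjusted p = 0.119).

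Among other glutathione-dependent transferases 2 of 7 rose. DHAR1, a dehydroascorbate reductase related to GSTs, measured 193 and 198 FPKM in WT, against 473 and 685 FPKM in fer-4 (2.96-fold, log2 fold change 1.54 ± 0.18, adjusted p = 0.00297). The paralogs DHAR2 and DHAR3 did not pass, with log2 fold changes of -0.13 and -0.39. AT1G65820, placed in this list as a microsomal transferase, rose 1.37-fold (adjusted p = 0.0227), but not past the threshold without WT replicate 1 or 2 or fer-4 replicate 2 (adjusted p = 0.0751, 0.136 and 0.0908). Of 9 glutathione redox enzymes 1 rose, the peroxidase gene GPX6, from 116 and 99.1 FPKM to 202 and 202 FPKM (1.88-fold, adjusted p = 0.00279). Of 7 ABCC transporters, several of which move glutathione conjugates into the vacuole, 0 passed by limma and 1 had an unadjusted p under 0.05, with log2 fold changes from -0.30 to 0.19.

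Among regulators, 2 of 8 rose: TGA1 from 34.2 and 31.8 FPKM to 55.5 and 56.1 FPKM (1.69-fold, adjusted p = 0.00249), and TGA7 from 13.7 and 13.5 FPKM to 21.7 and 26.5 FPKM (1.77-fold, adjusted p = 0.00663). TGA7 was not past the threshold without WT replicate 1 or 2 (adjusted p = 0.0548 and 0.0637). TGA2, TGA5 and TGA6, which with SCL14 activate detoxification genes, did not pass, and neither did SCL14 (log2 fold changes from 0.05 to 0.31). Of 15 chemical detoxification genes 8 rose, with CYP81D8 (3.61 ± 0.828 to 16.8 ± 3.38 FPKM, 4.65-fold, adjusted p = 0.00133) and the glycosyltransferase UGT73B4 (20.1 ± 0.25 to 57.7 ± 8.49 FPKM, 2.87-fold, adjusted p = 0.00076) the largest (SD, n = 2; limma). The median log2 fold change was 0.66 in that list and 0.23 over the 6 lists.

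Of the 49 GST genes, 15 overlapped another annotated gene, 5 of them among the 18 called. Without a known strand setting, reads from opposite strands cannot be told apart. GSTU10 with PCMP-E69, GSTF8 with AT2G47720, and GSTU17 with GSTU18 overlapped on the same strand, where a strand setting would not separate them. The called ones among the 15 were GSTF10, GSTF11, GSTU7, GSTU10 and GSTZ1. The genes overlapping them reached at most 14.7 FPKM (AT2G30880, over GSTF10), and none of those tested was called. NAC045 over GSTF11, and MTPB and AT2G08340 over GSTU7, were not tested. GSTU7 and GSTL2 also shared a locus in the files with MTPB and PGPS2, which lie on the other strand. Of the genes not called, GSTF2 overlapped TOC159 (78.7 to 97.95 FPKM) and GSTF12 overlapped PSY1 (91.0 to 137 FPKM), and GSTU17 and GSTU18 overlapped each other. GSTL3 overlapped CDL1, which rose (log2 fold change 0.73, limma, adjusted p = 0.0178).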

How the data were processed

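Whole-seedling mRNA libraries of 2 WT and 2 fer-4 samples were analysed. The values are gene-level FPKM as the authors deposited them, per the file headers, with 1 file per library. Per the submitters' processing notes, the tools were CASAVA, StringTie 1.3.3 and HISAT2 2.0.5, with the build TAIR10. How each was set, which annotation was used, and how strand and reads with several matches were handled was not stated in the labels. Genes missing from a file were set to 0. Depth was estimated, since no counts are given, from low FPKM values scaled by length, among genes with 1 transcript over 1000 bp. The median of the values inside a fixed window was taken as 1 fragment, so the window bounds the estimate.

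Values were compared as log2(FPKM + 1) with limma-trend (limma 3.58.1, R 4.3.3) between genotypes without covariates, for genes whose mean reached 1 FPKM, with Benjamini-Hochberg adjustment over all genes tested; the code was tested on simulated data. Errors of FPKM are SDs of 2 libraries. Coordinates, gene models, coding identity (global alignment, Biopython 1.88) and upstream sequence came from RefSeq's TAIR10.1, which matched all 49 members. Named were all members that passed, the 3 highest tau and phi genes, all zeta, theta and lambda genes, members with an absolute log2 fold change of at least 1, and up to 2 rises and 2 falls per list; GSTs beyond these were named to account for all 49, and list genes beyond it (GSH1, DHAR2, DHAR3, TGA2, TGA5, TGA6, SCL14) after their values were seen. Members and lists were chosen with earlier results of these data known. Alternatives were another pseudocount, other filters, quantile normalization, a replicate block and leaving out each library. One upstream sequence is not reported here.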

Additional observations from a re-analysis of the deposited data

How the results depend on the processing

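In all 18 called GST genes the groups did not overlap, so another pseudocount or leaving out 1 library could not reverse a sign. The filters and replicate blocks left the fold changes as they were. Only quantile normalization could have reversed a sign, and under it all 18 kept theirs. GSTU8, GSTU13, GSTU20, GSTU24 and GSTZ1 were called in each of the 10 alternatives. Leaving out 1 library at a time gave 1227 to 2681 genes higher and 461 to 1736 lower over all genes tested. Among them were 3 to 12 tau genes higher and 2 to 3 lower, 0 to 6 phi genes higher and 0 to 1 lower, 1 to 2 zeta, theta and lambda genes higher, and 10 to 21 genes of the 6 glutathione lists higher and 0 to 1 lower. The medians ranged from 0.19 to 0.33 for tau and from 0.27 to 0.76 for phi (0.81 with a pseudocount of 0.1), and the ratios of summed FPKM from 0.928 to 1.06 and from 1.18 to 1.64. The lowest phi count came without WT replicate 2. Without a filter on low values 1 phi gene was higher, and with quantile normalization 3 list genes were lower. Each fit with 1 library left out took the spread of a gene only from the genotype that kept both libraries. Its counts do not weigh the spread of the other genotype. The causes of these differences were not tested.

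Same-numbered WT and fer-4 libraries deviated from their group means with a correlation of -0.222 over the genes tested, and the labels give the numbers no meaning. The replicate block called 2410 genes higher and 1362 lower, among them 1 zeta, theta or lambda gene higher, and it ended the calls of GSTU27, GSTF10 and GSTT1 and added GSTF2 (adjusted p = 0.0356) and GSTF13, for 5 phi genes higher. Pairing the numbers crosswise, chosen after seeing the data, called 3315 higher and 2366 lower, with 10 tau, 6 phi and 24 list genes higher and 5 tau, 2 phi and 2 list genes lower.

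Of the 28 uncalled genes 12 had both signs of log2 fold change over the settings. Besides GSTF9, GSTL1, GSTL2 and GSTT3 these were GSTF12, GSTU2, GSTU11 (-0.18 to 1.58), GSTU22, GSTU23, GSTU25, GSTU26 and GSTU28. Only GSTU11 of the 12 was called under a setting, without fer-4 replicate 1. With 1 library left out GSTF9 ranged from -0.069 to 0.23, GSTL1 from -0.059 to 0.17, GSTL2 from -0.19 to 0.21 and GSTT3 from -0.089 to 0.085. With quantile normalization GSTL1 was at -0.018 and GSTL2 at -0.035. With 2 libraries per genotype and no counts, small changes of low genes could not be resolved.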
